A study of Mus musculus with 6 samples.

Results

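Complement is the set of plasma and cell-surface proteins that tag, recruit to and lyse targets in innate immunity. Its genes were described here in mouse mesenteric arteries, the small arteries that feed the gut. Of 9 listed complement genes, 7 were found through 12 probe sets that carry 1 gene symbol each, out of 34945 such probe sets and 45037 in all. These were the C1q chains C1qa, C1qb and C1qc, the alternative pathway protease gene Cfb, the anaphylatoxin receptor genes C3ar1 and C5ar1, and the C1 inhibitor gene Serping1. C3 and C4b have no probe set under that rule and are not analysed here. The members were listed by gene name, with earlier results of these data known.

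Total RNA from whole mesenteric arteries of 6 mice was measured, 1 array per mouse. The control group held 3 mice (animal numbers 30, 74 and 75) of the genotype loxP flanked beta1 integrin, negative for Cre. The knockout group held 3 mice (72, 73 and 86) that were sm22alphaCRE-positive and carried the same floxed alleles. Both groups were on a mixed background that includes FVB, SVJ129 and C57BL/6. Every mouse, controls included, received 14 daily doses of 1 mg tamoxifen from the age of 5 weeks, and arteries were taken at 7 weeks. The recombinase is driven by the SM22alpha (Tagln) promoter, which is active in smooth muscle, so other cells of the artery are not the intended target. The comparison asks how arterial RNA differs after beta1 integrin is deleted in smooth muscle.

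In the classical pathway, C1q recognises antibody complexes and cell debris. It is built from A, B and C chains encoded by neighbouring genes, and tissue macrophages are a main source. Factor B forms the alternative pathway convertase, the receptors sense the small fragments released during activation, and the C1 inhibitor blocks the proteases attached to C1q. Arteries hold macrophages mostly in the adventitia, their outer layer.

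Values are log2(intensity + 1) after quantile normalization between arrays, and differences are knockout minus control on that scale. A gene or probe set passes the threshold when its limma p, adjusted by Benjamini-Hochberg over everything tested, lies under 0.05. The array number, 3 against 3, limits the precision, and the smallest exact permutation p is 0.1. The targeted gene Itgb1 was lower on all 3 knockout arrays (10.51 to 10.76) than on the control arrays (11.04 to 11.80), although its difference of -0.73 did not pass the threshold (limma adjusted p = 0.127). Of 8 smooth muscle markers tested, 7 were lower in the knockout and 0 passed the threshold. Without overlap there were 3 lower, where 15.1% of all genes were. The largest difference was -1.20 for Lmod1 (limma adjusted p = 0.0567). Acta2 stood at 13.95 to 14.10 on all 6 arrays by its brightest probe set, while dimmer ones differed by -0.56 and -0.87 with overlap. The brightest had the identical value of 14.10 in controls 30 and 75 and knockout 72, since quantile normalization gives equal ranks equal values. At the top of the range it can therefore show little difference. Tagln stood at 13.52 to 13.77 in controls and 13.17 to 13.46 in knockouts (limma adjusted p = 0.231). Knockout 86 had Xist at 11.83 against 5.29 to 6.09 elsewhere. Eif2s3y stood at 2.03 there against 8.63 to 9.07, so this mouse was female. The sample titles mark it F and the others M. All 3 controls were thus male, and the only female was a knockout, so sex differs within the knockout group and is not balanced between the groups. Knockout 73 stood apart in leukocyte transcripts, as given below. Differences of the member genes and of the macrophage list mean are also given without it. Other single genes are given with all 6 arrays only. Separate animals are named, and nothing in the labels ties a control to a knockout mouse.

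RefSeq promoters on GRCm38.p6, from 250 bases before to 50 after the gene start, were found for 4 of the 7 genes measured: C1qb, C1qc, C3ar1 and C5ar1. Those of C1qb, C1qc and C3ar1 are shown because these genes followed each other across arrays, with Pearson correlations of 0.990 to 0.991 over the 6 arrays. They lie at chr4:136886151-136886450, chr4:136892865-136893164 and chr6:122856108-122856407, all on the minus strand, and are written 5′ to 3′ with every match to a searched motif in capitals.
C1qb: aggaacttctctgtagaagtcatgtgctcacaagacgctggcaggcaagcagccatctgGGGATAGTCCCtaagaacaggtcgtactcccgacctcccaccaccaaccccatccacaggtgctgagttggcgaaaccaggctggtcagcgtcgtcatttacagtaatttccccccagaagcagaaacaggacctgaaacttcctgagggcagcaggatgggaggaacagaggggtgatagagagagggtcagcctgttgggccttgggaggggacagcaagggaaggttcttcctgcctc
C1qc: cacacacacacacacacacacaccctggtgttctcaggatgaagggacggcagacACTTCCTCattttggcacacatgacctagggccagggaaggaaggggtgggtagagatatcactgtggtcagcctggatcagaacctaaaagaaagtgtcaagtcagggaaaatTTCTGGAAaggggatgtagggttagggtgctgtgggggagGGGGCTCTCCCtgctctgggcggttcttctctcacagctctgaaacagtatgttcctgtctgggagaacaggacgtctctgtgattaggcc
C3ar1: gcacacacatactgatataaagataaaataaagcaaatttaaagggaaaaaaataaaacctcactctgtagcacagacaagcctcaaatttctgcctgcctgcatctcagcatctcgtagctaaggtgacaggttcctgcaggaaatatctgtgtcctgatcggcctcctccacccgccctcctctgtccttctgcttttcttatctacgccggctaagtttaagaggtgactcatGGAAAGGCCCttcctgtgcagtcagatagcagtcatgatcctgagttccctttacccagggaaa
The motifs, searched on both strands, were TTCNNNGAA for STAT factors, GAAANNGAA for interferon response factors, GAGGAAGT for PU.1, TTNCNNAA for C/EBP, and an NF-kB motif of GGG and CC separated by 5 free bases. The C1qc promoter held the PU.1 motif at bases 56 to 63 of the window, on the minus strand. It also held the C/EBP motif at bases 170 to 177 and overlapping NF-kB matches within bases 210 to 220. The C1qb window held overlapping NF-kB matches from base 60 to base 70, and the C3ar1 window held an NF-kB match at bases 237 to 246. Among 32851 promoters of this length, 3.20% held the PU.1 motif, 40.7% the C/EBP motif, 50.8% the NF-kB motif, 8.30% the STAT motif and 8.56% the interferon motif. The last 2 motifs had no match in the 3 windows shown, which says only that these letters are not there. The C5ar1 window, not shown, held the interferon motif at bases 185 to 193 and the C/EBP motif at bases 94 to 101.

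The C1q chain genes and C3ar1 were higher on every knockout array than on any control array, while no member passed the threshold across genes. C1qa stood 2.45-fold, C1qb 3.37-fold, C1qc 3.13-fold and C3ar1 5.67-fold higher by group means. Cfb and Serping1 overlapped between the groups. Of 6 member genes that passed the filter on low values, 0 passed the limma threshold, where 1.76% of 10654 genes were higher and 0.657% lower past it. At an unadjusted p under 0.05, 4 of the 6 were higher, against 9.86% of all genes tested (11.5% were lower). C3ar1 passed the filter only through its knockout signal, so this count is a description. Without any filter, 8 of 12 member probe sets did not overlap and were higher in the knockout, against 10.0% of all 34945 probe sets. Their exact permutation p was 0.1 each, the smallest possible. Means were higher in the knockout for all 12, with a median difference of 1.52 against -0.04 over all probe sets with 1 symbol. Without knockout 73 the median over the 12 was 0.92, and 11 of 12 were higher. In whole arteries, fewer or more cells of a type and less or more RNA per cell cannot be told apart.

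**Figure D1:**
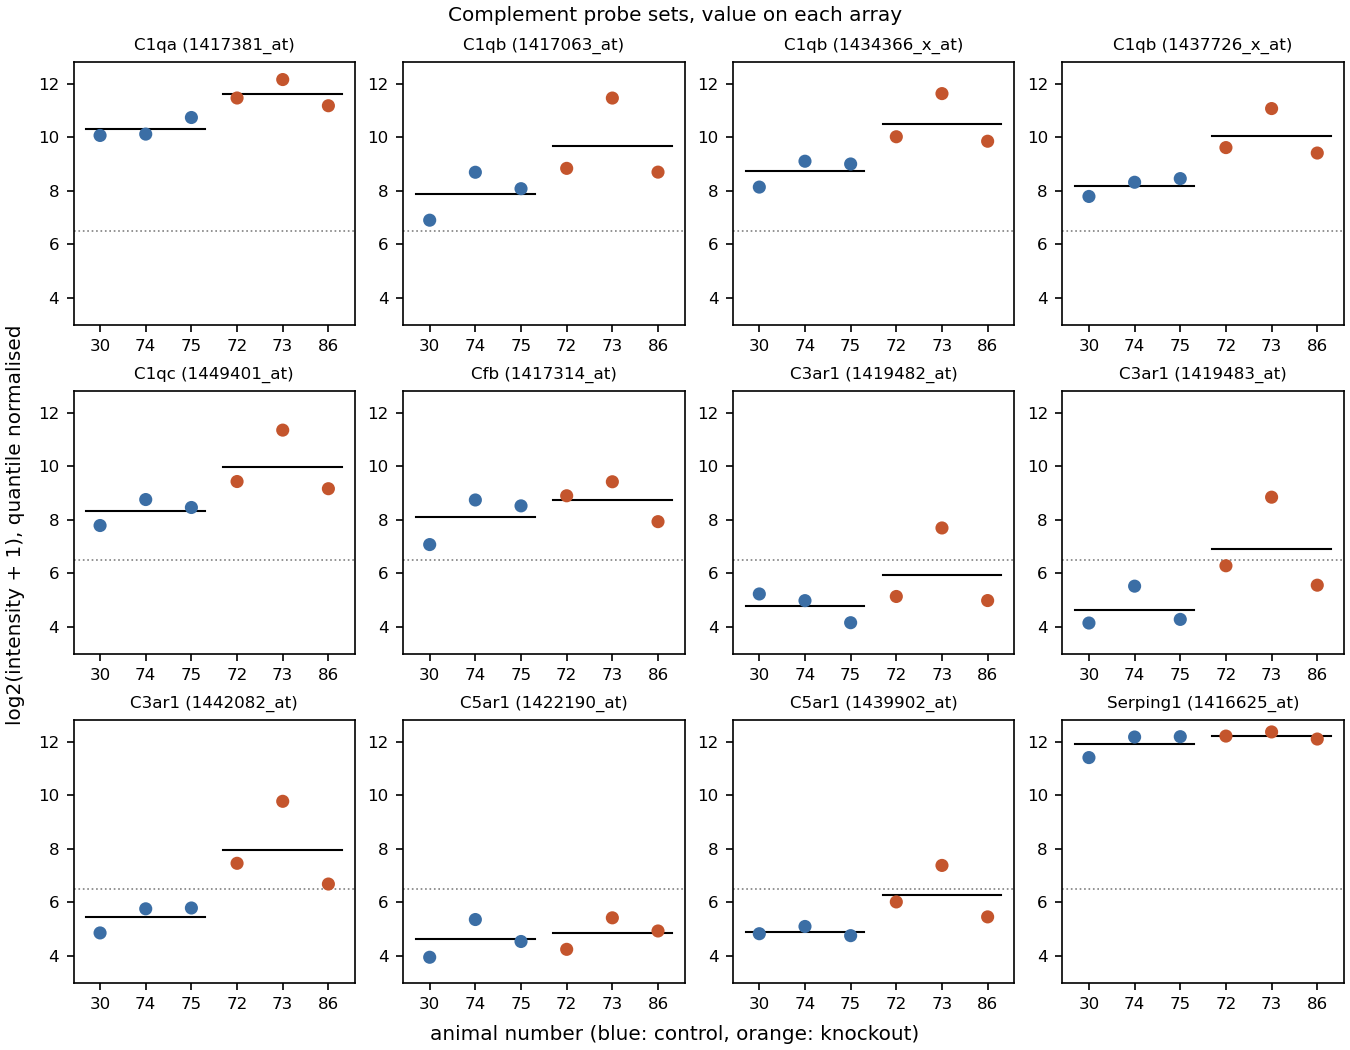
Log2(intensity + 1) of each of the 12 complement probe sets (panels) on the 6 arrays, labelled by animal number; points are single mice, black lines group means and the dotted line the filter level of 6.50. Knockout 73 is the highest array in every panel, and the groups overlap in 4 panels (Cfb, Serping1, 1 probe set of C3ar1 and 1 of C5ar1).

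C1qa, the gene of the A chain on chromosome 4, had deposited intensities of 1059, 1107 and 1665 in controls 30, 74 and 75. They were 2833, 4374 and 2370 in knockouts 72, 73 and 86. Every knockout array lay above the highest control. Group means on the log2 scale were 10.31 ± 0.37 for the controls and 11.60 ± 0.50 for the knockouts (SD, n = 3 each). They differed by 1.29 (SE 0.29, 95% confidence interval 0.59 to 1.99, limma adjusted p = 0.0773, unadjusted p = 0.00330). It was 1.02 without knockout 73 (adjusted p = 0.126). Of the members, C1qa had the smallest p, and among the refits tried only array weights brought it under 0.05 (limma adjusted p = 0.0413).

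C1qb, the B chain gene, was measured by 3 probe sets, which all ran the same way. The brightest of them stood at 8.14, 9.10 and 9.001 in controls 30, 74 and 75, and at 10.02, 11.63 and 9.85 in knockouts 72, 73 and 86. The groups did not overlap, and knockout 73 lay well above the other knockouts. The difference was 1.75 (SE 0.50, 95% confidence interval 0.56 to 2.94, limma adjusted p = 0.123), and 1.19 without knockout 73 (adjusted p = 0.139). This probe set and the next carry the suffix x, which marks probes that may also match similar sequences. The second stood at 7.79 to 8.46 in controls and at 9.61, 11.07 and 9.41 in knockouts, a difference of 1.84. The probe set without the suffix stood at 6.90, 8.69 and 8.08 in controls and at 8.84, 11.46 and 8.70 in knockouts, a difference of 1.78. There the gap between the groups was narrow, with control 74 at 8.692 and knockout 86 at 8.697. As separate rows, 0 of the 8 member probe sets above the filter passed the limma threshold (1.21% of 17473 probe sets were higher past it), and the adjusted p-values of the C1qb probe sets were 0.106, 0.145 and 0.286.

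C1qc, the C chain gene, stood at 7.79, 8.76 and 8.46 in controls 30, 74 and 75 and at 9.43, 11.35 and 9.16 in knockouts 72, 73 and 86. Again each knockout array lay above each control array, by the least in knockout 86. The difference was 1.65 (SE 0.58, 95% confidence interval 0.28 to 3.01, limma adjusted p = 0.172) and 0.96 without knockout 73 (adjusted p = 0.184). All 3 chain genes thus stood without overlap between the groups, where 13.0% of genes tested were higher without overlap. The Pearson correlation over the 6 arrays was 0.942 between C1qa and C1qb, 0.907 between C1qa and C1qc and 0.991 between C1qb and C1qc, a description over arrays that share the group difference.

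C3ar1 encodes the receptor for the C3-derived anaphylatoxin and is known from myeloid cells. Its brightest probe set had deposited intensities of 28.01, 49.2 and 52.5 in controls 30, 74 and 75, and of 184, 868 and 104 in knockouts 72, 73 and 86. All 3 knockout arrays were above the controls, and knockout 73 was above the other knockouts by 6.51-fold of their log2 mean. The log2 means were 5.47 ± 0.53 (SD, n = 3) and 7.97 ± 1.61 (SD, n = 3), so the controls averaged less than the filter level and the fold depends on the pseudocount. The difference was 2.50 (SE 0.75, 95% confidence interval 0.73 to 4.28, limma adjusted p = 0.131). Without knockout 73 the probe set no longer reached the filter, and its plain difference of means was 1.60. The 2 dimmer probe sets of C3ar1 lay below the filter. The first of them stood at 4.14, 5.52 and 4.28 in controls and at 6.28, 8.84 and 5.56 in knockouts, without overlap. The other stood at 4.16 to 5.23 in controls and at 5.14, 7.69 and 4.98 in knockouts, where only knockout 73 lay above the controls (exact permutation p = 0.4).

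C5ar1, the gene of the receptor for the C5-derived anaphylatoxin, was dim, and neither of its 2 probe sets passed the filter. The brighter one stood at 4.83, 5.10 and 4.76 in controls 30, 74 and 75 and at 6.02, 7.38 and 5.46 in knockouts 72, 73 and 86. These groups did not overlap, and the difference was 1.39, or 0.84 without knockout 73 (exact permutation p = 0.1 with all arrays). The dimmer one stood at 3.95 to 5.36 in controls and 4.24 to 5.42 in knockouts, with overlap (difference 0.25, exact permutation p = 0.7), and its difference was -0.03 without knockout 73. In a fit of all 34945 probe sets without a filter, the limma adjusted p of the C5ar1 probe sets was 0.308 and 0.833.

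Cfb, a gene of the major histocompatibility region on chromosome 17, stood at 7.07, 8.74 and 8.52 in controls 30, 74 and 75. It stood at 8.90, 9.42 and 7.93 in knockouts 72, 73 and 86. The groups overlapped, since knockout 86 lay below 2 controls, and control 30 was the lowest array. The difference was 0.64 (SE 0.53, 95% confidence interval -0.61 to 1.89, limma adjusted p = 0.516). It was 0.12 without control 30, 0.30 without knockout 73 and 1.05 without knockout 86. White adipocyte genes such as Adipoq were lowest on the same pair of arrays, with a list mean of 9.42 in control 30 and 9.70 in knockout 86 against 10.62 to 11.61 elsewhere. The part of adipose RNA in the Cfb values was not tested.

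Serping1, the gene of the C1 inhibitor, stood at 11.41, 12.17 and 12.19 in controls 30, 74 and 75 and at 12.21, 12.36 and 12.10 in knockouts 72, 73 and 86. Apart from control 30 all arrays lay within 12.10 to 12.36, and the groups overlapped. The difference was 0.30 (SE 0.23, 95% confidence interval -0.25 to 0.85, limma adjusted p = 0.485), or 0.05 without control 30. Without knockout 73 it was 0.23. Serping1 and Cfb had a Pearson correlation of 0.923 over the 6 arrays, against 0.661 to 0.750 between Serping1 and the C1q chain genes.

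**Figure D2:**
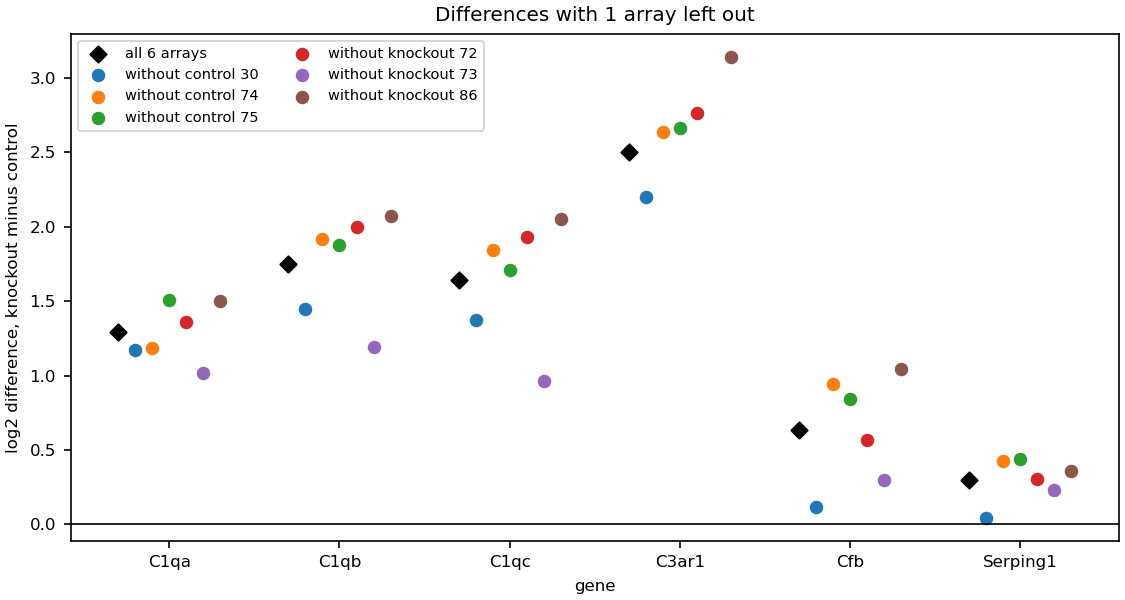
Log2 difference, knockout minus control, of the 6 member genes tested, with all 6 arrays (diamonds) and with 1 array left out (circles, coloured by the array left out). The C1q chain genes lie lowest without knockout 73 (0.96 to 1.19), Cfb and Serping1 lie lowest without control 30 (0.12 and 0.05), and C3ar1 has no value without knockout 73 because it then falls below the filter.

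Other complement genes, from a list of 50 of which 40 are on the array and 21 were tested, showed no shared direction. Past the limma threshold were 0 of 21, and at an unadjusted p under 0.05 there were 6, near the 21.4% of all genes tested. The median difference was -0.06 against -0.05 over all genes. Of the classical and lectin pathway genes, 3 of 7 were higher and 4 lower. The C1q-associated protease genes C1ra and C1s1 differed by -0.17 (95% confidence interval -0.70 to 0.37) and 0.01 (-0.50 to 0.51). C1qa differed by 1.29 (0.59 to 1.99), and these genes were not tested against each other. The scavenger collectin gene Colec12 stood at 0.57 (limma adjusted p = 0.132) and the ficolin gene Fcna at 0.73 (adjusted p = 0.230). With a control mean of 6.47, below the filter level, Fcna was tested only through its knockout signal. The properdin gene Cfp, of the alternative pathway, stood at -0.06 (limma adjusted p = 0.884) by its brightest probe set. Its probe sets disagreed: another above the filter averaged 7.21 in controls and 8.57 in knockouts without overlap (difference 1.36, limma adjusted p = 0.173 over probe sets). The gene C6 of the terminal pathway stood at -0.52 (adjusted p = 0.251). With a knockout mean of 6.27, below the filter level, C6 was tested only through its control signal. The other 5 terminal pathway genes on the array lay below the filter.

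Among complement regulators, 2 of 6 were higher and 4 lower. The clusterin gene Clu stood at 12.62 to 12.84 in controls and 12.21 to 12.38 in knockouts, a difference of -0.43 (SE 0.13, limma adjusted p = 0.127). The gene Cd59a, whose product blocks the membrane attack complex, stood at 11.10 to 11.75 and 10.46 to 11.00, a difference of -0.60 (SE 0.23, adjusted p = 0.195). In both the groups did not overlap, where 15.1% of genes were lower without overlap. Among receptors and C1q binding proteins 5 of 6 were higher, of which Itgax was tested only through its knockout signal (control mean 6.34). The gene Calr of the C1q-binding chaperone calreticulin stood at 11.78 to 11.89 and 12.21 to 12.36 (difference 0.46, SE 0.12, adjusted p = 0.0958). Itgb2, the beta chain of complement receptors on leukocytes, stood at 6.41 to 8.12 in controls and at 8.49 to 11.03 in knockouts (difference 2.12, SE 0.71, adjusted p = 0.157). Its partner Itgam lay below the filter, at 4.91 to 5.82 in controls and 6.00 to 7.73 in knockouts.

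**Figure D3:**
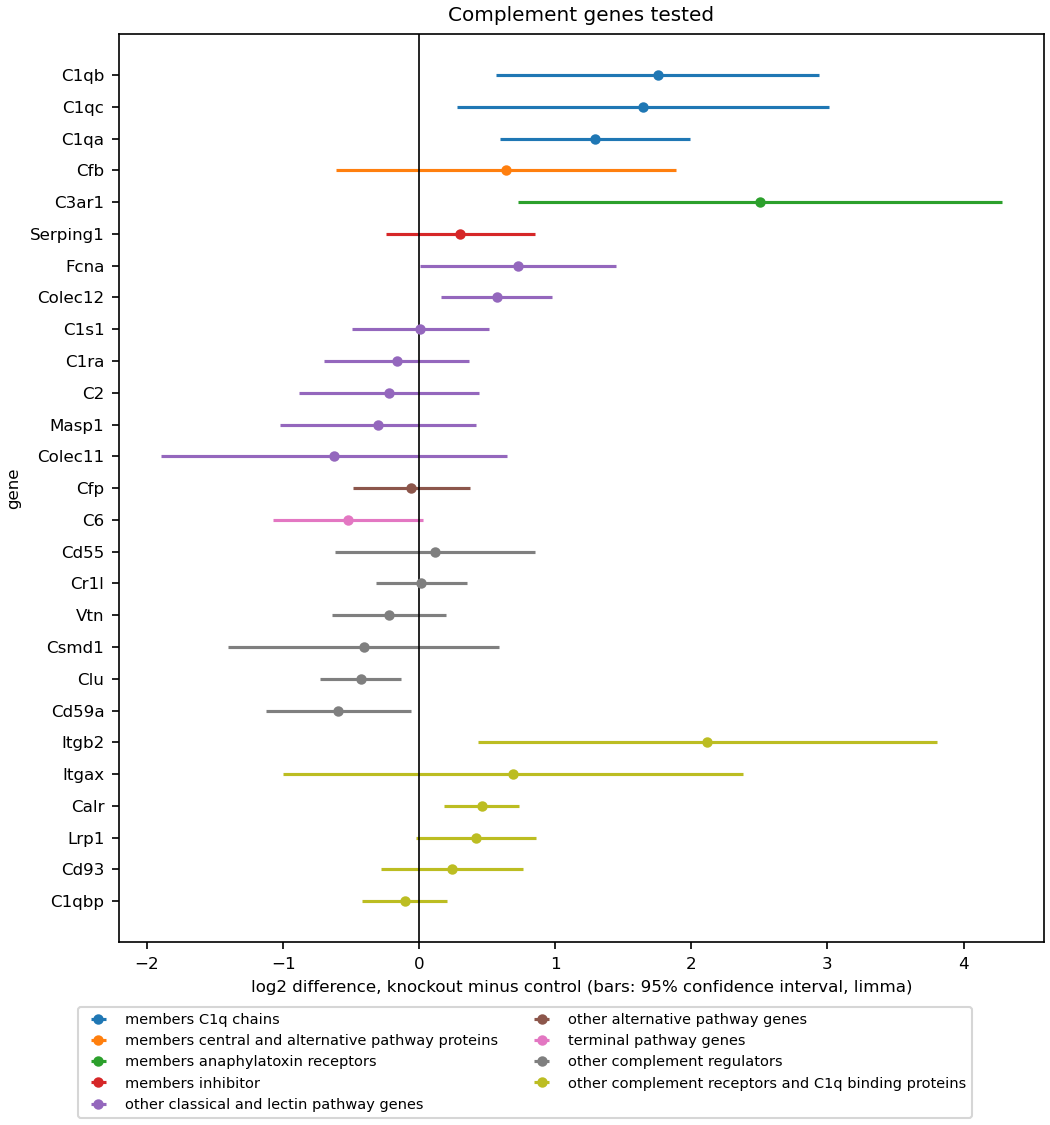
Log2 difference, knockout minus control, with the 95% confidence interval from limma for the 6 member genes and the 21 other complement genes tested, coloured by list. The intervals of C1qa, C1qb, C1qc and C3ar1 lie above 0, while those of Cfb and Serping1 include it.

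Macrophage and monocyte markers were higher alongside the C1q chain genes and C3ar1. Of 20 listed markers, 18 are on the array and 17 were tested; 17 were higher in the knockout. Of these, 11 did not overlap between the groups (13.0% of all genes were higher without overlap) and 13 had an unadjusted p under 0.05 (9.86% of all genes). Only Ccr2, a monocyte chemokine receptor named after its values were seen, passed the limma threshold (2.35, SE 0.28, adjusted p = 0.0133). Its control mean of 5.64 lay below the filter, so like C3ar1 it was tested only through its knockout signal. The same held for Aif1 and Cd68, with control means of 6.15 and 6.25, so the counts for the list are a description. The log2 of the summed list signal was 11.7 to 12.9 in controls and 13.3 to 15.5 in knockouts. The list mean was 7.15, 8.10 and 7.87 in controls 30, 74 and 75 and 9.12, 10.50 and 8.68 in knockouts 72, 73 and 86. Its difference was 1.73, and 1.19 without knockout 73. Its order within the knockouts was that of the C1q chain genes, and also that of C3ar1, Cfb and Serping1. Not every marker on the list followed this order. Ccr2 and Cx3cr1 stood highest in knockout 72 (8.31 and 7.07), ahead of knockout 73 (8.20 and 7.05). Among the knockouts, Cd163 was highest in knockout 86 (9.08) and lowest in knockout 73, where it lay below control 74 (8.25). Csf1r stood at 9.09 to 10.25 in controls and at 11.00, 12.38 and 10.71 in knockouts, a difference of 1.58 (limma adjusted p = 0.136). Lyz2 stood at 8.94 to 10.54 in controls and at 11.09, 12.89 and 10.24 in knockouts, with overlap, and Cd68 at 5.63 to 7.21 against 6.91, 10.67 and 6.90. The receptor gene Adgre1 stood at 7.63 to 8.41 and 9.21 to 11.34, and Ptprc, a gene of all leukocytes, at 7.04 to 8.12 and 9.02 to 11.38. The part of macrophage number in the C1q and C3ar1 values was not tested.

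Markers of other cells of the vessel differed between the groups as well. Endothelial genes were lower for 6 of 6 tested, 4 without overlap, and 0 passed the threshold (4 had an unadjusted p under 0.05). Their log2 summed signal was 14.16 to 14.34 in controls and 13.66 to 14.01 in knockouts. Over all genes tested, 15.1% were lower without overlap and 11.5% were lower at an unadjusted p under 0.05. Both Schwann cell genes tested were lower without overlap and did not pass the threshold. Adventitial fibroblast genes were higher for 6 of 7, 3 without overlap, where 13.0% of all genes were higher without overlap. Of these, the matrix gene Mfap5, named after its values were seen, passed the threshold (10.05 to 10.44 in controls, 11.12 to 11.39 in knockouts, difference 1.08, SE 0.15, limma adjusted p = 0.0224). The part of these shifts in the complement values was not tested.

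Knockout 73 also held more B cell transcript than the other arrays. Cd79a stood at 7.03 there against 3.57 to 4.56 elsewhere, and Ms4a1 at 6.63 against 4.07 to 4.84. The T cell list mean was 5.14 against 3.75 to 4.41. The gap was widest for Cd4, at 4.97 against 1.61 to 2.76. Cd3d alone on this list was not highest in knockout 73, at 4.91 against 4.76 to 5.61. None of these B and T cell markers passed the filter, and 1 of 6 neutrophil genes on the array did (S100a8 at 7.24 to 7.52 on all arrays). Per the labels, adipose and lymph tissue was cleared from the vessels. Adipocyte genes were bright on all arrays all the same, with Fabp4 at 13.40 to 14.10 and Adipoq at 11.31 to 13.53. The hepatocyte gene Alb, a marker of the liver that makes most plasma complement, stayed at 4.50 to 5.56 on all arrays, below the filter level.

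**Figure D4:**
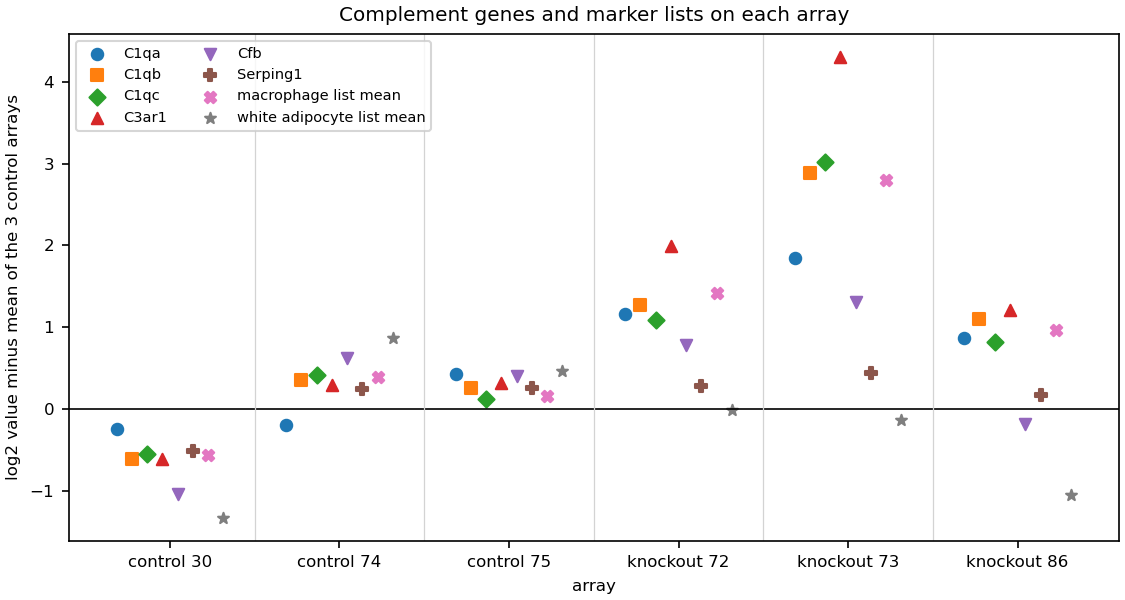
Log2 value of the 6 member genes tested and of the mean of the macrophage and white adipocyte marker lists on each array, minus the mean of the 3 control arrays. All 6 genes and the macrophage list are highest in knockout 73, and all 6 genes and both lists are lowest in control 30.

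The genes with the most similar pattern over the 6 arrays were named by Pearson correlation among the 10654 genes tested, as a description over arrays that share the group difference. For C1qa they were Laptm5 (0.995), Pycard (0.992) and Irf5 (0.991). For C1qb they were Adgre1, H2-DMa and H2-Eb1 (0.996 to 0.997), and for C1qc Lcp1 (0.999), Mpeg1 (0.999) and Cd53 (0.996). For C3ar1 they were Nckap1l (0.999), Myo1g (0.998) and Adgre1 (0.997). For Cfb they were Acsl5, Fcgr2b and Emilin2 (0.987 to 0.991), and for Serping1 2410006H16Rik, Mfap4 and Tnfaip8l1 (0.979 to 0.983). The lists of neighbours of C1qb and C3ar1 shared Adgre1, and no other gene was in more than 1 of the 6 lists.

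Of 12 genes tested among known inducers and response markers of complement expression, 7 were higher and 5 lower, and 0 passed the limma threshold (2 had an unadjusted p under 0.05, where 21.4% of all genes did). Socs3, a feedback inhibitor of cytokine signalling, stood at 7.81 to 9.69 in controls and 9.89 to 10.64 in knockouts (difference 1.46, SE 0.46, adjusted p = 0.143). Irf8, a myeloid transcription factor, stood at 5.87 to 6.79 and 7.25 to 9.13 (difference 1.46, SE 0.52, adjusted p = 0.176). Its control mean of 6.48 lay below the filter level, so it was tested only through its knockout signal. The acute phase gene Saa3, by contrast, stood at 6.73, 8.23 and 9.54 in controls and at 10.12, 8.66 and 5.35 in knockouts, with wide overlap.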

How the data were processed

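The authors deposited 1 linear intensity per probe set and array for 6 arrays; the summarisation of probes and the scaling are not given in the sources used here, and no detection calls were used. Gene symbols came from the platform annotation: 34945 probe sets had 1 symbol, 932 several and 9160 none, and only those with 1 were used. From the deposited intensities, log2(intensity + 1) was computed, with quantile normalization between arrays. Probe sets with a mean under the median of those with 1 symbol (log2 6.50) were left out, which left 17473, and each gene took its brightest probe set, giving 10654 genes. Groups were compared with limma 3.58.1 in R 4.3.3 (lmFit, eBayes, 2-sided, Benjamini-Hochberg over all rows), and single probe sets by a 2-sided exact permutation test. The procedure was tested on simulated data. Arrays have no pairing or batch in the labels.

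Members, lists and tests were chosen with earlier results of these data known. Named were all member probe sets; of each list of other complement genes and inducers, the genes past the threshold and otherwise those with the 2 smallest p; fixed marker genes; and the 3 closest correlates per member. C1ra, C1s1, Itgam, Saa3, Cd163 and Cx3cr1 were named after their values were seen. The settings varied were the filter (none, or the 70th percentile), averaging a gene's probe sets, normalization (median centring, or none), the pseudocount (16), eBayes with trend and robust, array weights, the threshold (0.1), and each array left out in turn. The count of members without overlap under these settings was added after seeing the data.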

Additional observations from a re-analysis of the deposited data

How the results depend on the processing

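The count of 0 member genes past the threshold was 1 with array weights (C1qa) and 1 at a threshold of 0.1 (C1qa), and 0 under the other 13 alternatives. For other complement genes the count of 0 was 3 with array weights (Calr and Fcna higher, Clu lower) and 1 at a threshold of 0.1 (Calr). For member probe sets it was 1 at a threshold of 0.1. Over all genes 258 passed in the reported fit, 1131 with array weights, 656 at a threshold of 0.1, 141 with the 70th percentile filter and 37 to 286 with 1 array left out, and knockout 72 weighed 4.59 against 0.38 to 1.60 for the others. No member gene tested changed direction under any alternative. The number of member genes without overlap was 4 of 6, where 28.1% of all genes did not overlap in either direction, and 3 to 6 with 1 array left out, where 33.4% to 43.2% did not. C3ar1 could not be tested without knockout 73 or with the 70th percentile filter, since it fell below the filter. No paired analysis was possible because the animals' numbers are not shared between groups. The deposited values carry no background estimate, which limits what can be read from C5ar1, Il6, and C3ar1 in controls.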

Other observations

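Interleukin 6 is an inducer of several complement genes, and its gene was named here after its values were seen. Il6 lay below the filter by its mean, at 3.38, 4.19 and 4.06 in controls 30, 74 and 75 and at 8.36, 7.58 and 6.88 in knockouts 72, 73 and 86. The groups did not overlap, and in a limma fit of all probe sets without a filter the adjusted p was 0.0288. The control values are not shown to lie above background, so no size of the difference is given. Unlike the C1q chain genes, its highest array was knockout 72 and not knockout 73. The interleukin 1 beta gene Il1b stood at 2.49, 4.98 and 4.74 in controls and at 5.71, 5.46 and 5.32 in knockouts, and Tnf at 1.76 to 4.15 and 2.09 to 3.002, all below the filter level.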
